A study of Mus musculus with 2 samples.

Results

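The genes described here are insulin-like growth factor 1 (Igf1), its receptor (Igf1r) and the IGF binding proteins Igfbp1 to Igfbp7, 9 genes in all of the 20207 in the gene tables. They were taken by symbol, and all 9 were found. They were read in day 6 embryoid bodies, free-floating clumps formed by differentiating mouse ES cells. The cells of both groups carried doxycycline-inducible short hairpin RNAs against HoxBlinc, a long noncoding RNA of the HoxB cluster. There was 1 library of cells left without doxycycline and 1 of cells that received it at 2 ug/ml starting on day 2. RNA of 2 hairpins was combined in each library. The ES cell lines R1/E and CGR8 MHC-GFP are named in the labels without saying which was used for these libraries, and both were kept on irradiated mouse embryonic fibroblasts before a feeder-free passage. The comparison addresses which genes differed in level when the hairpins were induced. Neither library was of cells given doxycycline without these hairpins, so effects of the drug and of the hairpins cannot be told apart.

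With 1 library per group no difference has a replicate check, so no test is given, and what is compared are single libraries rather than conditions. Levels are RPKM, read density per length of gene and per sequencing depth as the authors scaled it. The log2 ratio of a gene is log2(RPKM + 0.5) with doxycycline minus that without, which understates differences of low genes. A gene counted as measured when its RPKM was at least 1 in the higher library. Fold differences of single genes are ratios of CPM, in which a count is divided by the sum over all genes in its library, with exact conditional binomial 95% intervals, which reflect only the error of counting. That sum was 37046449 counts in the library without doxycycline and 24924921 in the library with it. Over the 11063 measured genes the median log2 ratio was -0.18 on the RPKM scale and -0.03 on the CPM scale, so each member's ratio is read against that shift. Pluripotency genes were still expressed in both libraries, with Pou5f1 at 45.4 RPKM without and 32.1 RPKM with doxycycline, beside markers of mesoderm and endoderm derivatives. HoxBlinc itself was not analysed here.

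Insulin-like growth factors are small secreted proteins related to insulin. They promote growth and survival by binding the IGF1 receptor, a tyrosine kinase that signals through the insulin receptor substrates to the PI3K-Akt and MAPK pathways. In extracellular fluid most IGF is held by binding proteins, which limit its access to the receptor, protect it from breakdown and can release it when proteases cleave them. Several binding proteins also act on cells without IGF. In the mouse embryo IGF2 is the main IGF ligand, while IGF1 from the liver dominates after birth under the control of growth hormone.

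The binding protein genes were mostly lower with doxycycline, by very different amounts, and the receptor gene was higher. Log2 ratios below 0 were common on the RPKM scale, in 5 of the 6 measured members and in 8505 of the 11063 measured genes. Below the median of all measured genes were 4 of the members. Igfbp4, Igfbp5 and Igfbp6 had log2 ratios of -1.85, -1.02 and -1.19, past a 2-fold difference. Igfbp2, the most abundant member in both libraries, had a log2 ratio of -0.52. Igfbp3 was nearly level at -0.07, and Igf1r was higher at 0.31. Igf1, Igfbp1 and Igfbp7 did not reach an RPKM of 1 in either library. Past a 2-fold difference were 3 of the 6 measured members on the lower side and 0 on the higher side, where 2.64% and 0.262% of all measured genes were. After centring on the median of all measured genes 2 members (Igfbp4 and Igfbp6) were past it on the lower side, where 1.745% of all measured genes were. Igfbp6 passed the filter only through the library without doxycycline, where its RPKM was 1.22, so its place in that count follows in part from the filter. The median log2 ratio was -0.77 over the 6 measured members and -0.52 over all 9. In bulk RNA, fewer cells of a type and less RNA per cell cannot be told apart.

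**Figure D1:**
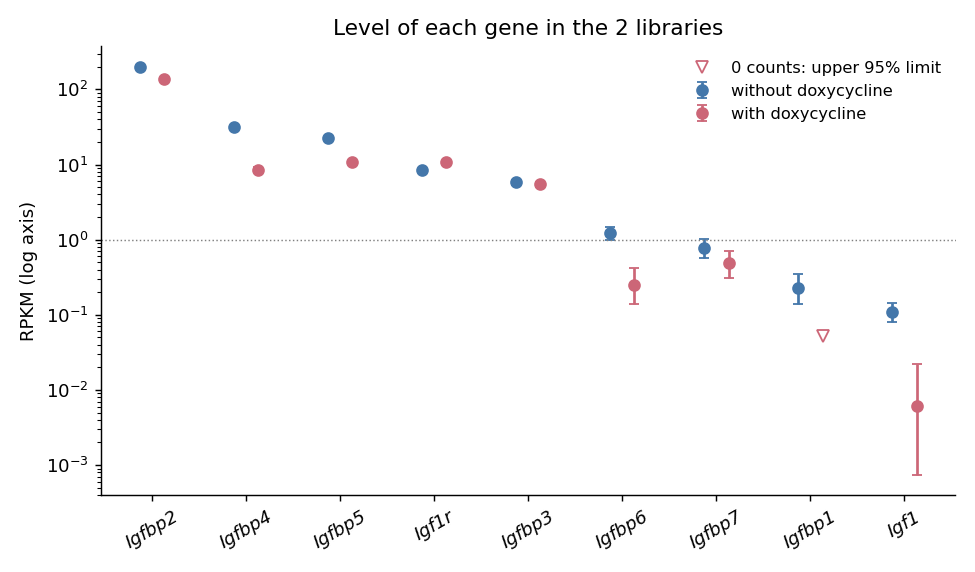
RPKM of the 9 genes on a log axis, without and with doxycycline, 1 library each, with exact Poisson 95% intervals for counting error. Igfbp2 stood highest in both libraries at 199 and 139 RPKM, Igfbp4 went from 32.0 without to 8.53 with doxycycline, and Igfbp1 had 0 counts with doxycycline.

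The promoters of 5 binding protein genes are printed because these genes had the largest differences, or, for Igfbp3, because it lies beside Igfbp1 and was nearly level. Each is the 250 bases before the start of the transcript, from RefSeq on GRCm38.p6, written 5′ to 3′ on the strand of the gene. All 9 members matched the RefSeq windows, in 10 windows because Igfbp2 has 2 starts. Capitals mark the motif found on either strand: TATAAA (the usual TATA box), its variant TATATA, its variant TATTTA, or the heptamer CAAAACA, which is the core of the insulin response element known from the Igfbp1 promoter.
Igfbp4 (chr11:99040994-99041243, plus strand): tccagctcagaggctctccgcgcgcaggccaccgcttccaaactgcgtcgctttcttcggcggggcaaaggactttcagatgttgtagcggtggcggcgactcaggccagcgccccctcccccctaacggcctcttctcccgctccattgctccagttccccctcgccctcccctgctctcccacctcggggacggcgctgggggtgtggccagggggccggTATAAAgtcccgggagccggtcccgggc
Igfbp5 (chr1:72874866-72875115, minus strand): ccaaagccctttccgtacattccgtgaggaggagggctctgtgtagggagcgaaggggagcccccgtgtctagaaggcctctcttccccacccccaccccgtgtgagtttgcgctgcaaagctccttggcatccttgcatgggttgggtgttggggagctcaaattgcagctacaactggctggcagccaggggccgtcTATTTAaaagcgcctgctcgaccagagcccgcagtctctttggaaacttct
Igfbp6 (chr15:102143936-102144185, plus strand): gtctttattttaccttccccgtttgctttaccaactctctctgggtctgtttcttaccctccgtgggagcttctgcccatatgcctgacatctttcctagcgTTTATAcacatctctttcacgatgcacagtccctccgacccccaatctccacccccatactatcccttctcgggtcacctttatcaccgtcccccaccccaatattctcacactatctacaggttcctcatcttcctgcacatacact
Igfbp3 (chr11:7213924-7214173, minus strand): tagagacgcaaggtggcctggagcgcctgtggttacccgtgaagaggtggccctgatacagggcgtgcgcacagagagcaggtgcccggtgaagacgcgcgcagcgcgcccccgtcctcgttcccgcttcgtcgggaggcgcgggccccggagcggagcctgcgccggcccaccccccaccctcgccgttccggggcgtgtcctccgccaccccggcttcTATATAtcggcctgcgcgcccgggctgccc
Igfbp1 (chr11:7197537-7197786, plus strand): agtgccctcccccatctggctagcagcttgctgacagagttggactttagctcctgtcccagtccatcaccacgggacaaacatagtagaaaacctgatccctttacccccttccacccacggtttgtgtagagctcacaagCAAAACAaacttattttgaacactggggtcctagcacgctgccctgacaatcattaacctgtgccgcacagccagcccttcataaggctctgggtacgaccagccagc

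In the Igfbp4 window TATAAA lies 28 bases before the start, and in Igfbp3 TATATA lies 30 bases before it. The TATTTA of Igfbp5 lies 51 bases before the start. In Igfbp6 the match to TATAAA is on the opposite strand, 148 bases before the start, and appears in the printed sequence as TTTATA. The CAAAACA of Igfbp1 lies 108 bases before the start. No printed window holds more than 1 of these matches, so none overlap. Over all 32851 windows of the same length, TATAAA was found in 12.4%, TATATA in 5.25%, TATTTA in 12.7% and CAAAACA in 5.56%.

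GGGCGG, the core of the GC box bound by Sp1, was found 2 times in the Igf1r window, 3 times in the upstream Igfbp2 window and 4 times in the Igfbp7 window, against 32.7% of all windows with at least 1 match. The Igf1r window held 42 CpG at 77.6% GC, where the median over all windows was 6 CpG at 52.4% GC. Igfbp4 held 22 CpG, Igfbp3 32, Igfbp5 10, Igfbp6 7, and Igfbp1 and Igf1 5 each. TGATNNAT, a form of the Pbx-Hox motif, had 0 matches in the 10 member windows and was present in 7.68% of all windows. These matches describe the letters of the windows only.

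Igf1, the ligand, was close to undetected. Its RPKM was 0.110 from 48 counts without and 0.00615 from 2 counts with doxycycline, on chromosome 10 from 87323856 to 87399792 (mm9, as for all gene positions here). The gene model of the library without doxycycline began 2055 bases further upstream, so counts were not compared and RPKM, which divides by length, was used. The lengths implied by counts and RPKM differed between the libraries by 1.17%, relative to the typical gene. The RPKM was 17.9-fold lower with doxycycline, with an interval of 4.69 to 152 that widens to 2.92 to 736 if the mates of each read pair were counted singly. Chemosensory receptor genes, which these cells have little reason to express, give a scale for such levels. Of 1398 of them, 742 had counts without and 90 with doxycycline, and 28 stood at or above the RPKM of Igf1 in the library without. With doxycycline all 90 that had counts stood at or above Igf1, while the median of the 1398 was 0 RPKM. Since RPKM divides by gene length, the 2 counts of Igf1 do not settle its place among these genes. The 95th percentile of these genes was 0.0869 RPKM without and 0.0225 RPKM with doxycycline, so low-level counts were scarcer across the library with doxycycline. Their part in the difference of Igf1 was not tested.

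Igf1r, the tyrosine kinase receptor of IGF1 and IGF2, was the only measured member higher with doxycycline on the RPKM scale. The gene, on chromosome 7 from 75097143 to 75378553, had an RPKM of 8.56 without and 10.7 with doxycycline. Its 6283 and 5939 counts made 170 and 238 CPM, which was 1.41-fold higher with doxycycline (95% interval 1.36 to 1.46, and 1.34 to 1.48 with counts halved). By RPKM it was 1.25-fold higher. The size rested on the scaling, from a log2 ratio of 0.09 on the authors' RMS-normalized scale to 0.49 after centring on the median of all genes, while the sign was the same throughout. Its log2 ratio ranked 10606 from the lowest of 11063 measured genes.

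Igfbp2, an abundant binding protein of embryonic tissues and fluids, had an RPKM of 199 without and 139 with doxycycline. It lies on chromosome 1 from 72871077 to 72899045 and was the 161st and 203rd most highly expressed gene of the tables. From 15920 and 8355 counts the CPM was 429.7 and 335, which was 1.28-fold lower (1.25 to 1.32, and 1.24 to 1.33 with counts halved). By RPKM it was 1.44-fold lower.

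Igfbp5, a binding protein that associates with extracellular matrix, lies 5594 bases beyond Igfbp2 on the same chromosome, from 72904639 to 72921439. Its RPKM was 22.4 without and 10.8 with doxycycline, from 8048 and 2916 counts. By CPM, 217 and 117, it was 1.86-fold lower (1.78 to 1.94, and 1.75 to 1.97 with counts halved), while by RPKM it was 2.08-fold lower (2.00 to 2.17). It thus sat close to the 2-fold line, past it on the RPKM scale and short of it on the CPM scale and after centring. Set against Igfbp2, its adjoining gene, Igfbp5 was lower by a further 1.45-fold (1.38 to 1.52), a ratio that does not depend on the scaling of the libraries.

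Igfbp4, a binding protein known chiefly to restrain IGF action until the protease PAPP-A cleaves it, had the lowest log2 ratio of the 9 genes. Its RPKM was 32.0 without and 8.53 with doxycycline, on chromosome 11 from 98902574 to 98913957. The 4053 and 815 counts made 109 and 32.7 CPM, which was 3.35-fold lower with doxycycline (3.10 to 3.61, and 3.002 to 3.73 with counts halved). By RPKM it was 3.75-fold lower (3.48 to 4.05). Its log2 ratio ranked 43 from the lowest of 11063 measured genes, and its place by level went from 1486 to 5104. It was at least 2-fold lower as RPKM, as CPM, after centring on the median and as RMS-normalized RPKM.

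Igfbp6, which prefers IGF2 over IGF1, was expressed at a low level. Its RPKM was 1.22 without and 0.252 with doxycycline, from 96 and 15 counts, on chromosome 15 from 101974617 to 101979943. By CPM it was 4.31-fold lower, with a wide interval of 2.49 to 7.99, and 1.89 to 9.88 with counts halved. Of the chemosensory receptor genes, 3 without and 8 with doxycycline stood at or above it. The RPKM fold was 4.83, larger than that of Igfbp4, but the intervals of these genes overlap and the ratio of their folds was 1.29 (0.738 to 2.40).

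Igfbp3, the main carrier of IGF in serum, did not differ clearly. It had an RPKM of 5.79 without and 5.49 with doxycycline, from 866 and 619 counts, on chromosome 11 from 7106096 to 7113926. By RPKM it was 1.06-fold lower, and by CPM, 23.4 and 24.8, it was 1.06-fold higher with an interval of 0.957 to 1.18. Its direction thus turned with the scaling.

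Igfbp1, a secreted liver and decidua protein whose transcription insulin represses, was near the limit of detection. It lies 3547 bases from Igfbp3, on chromosome 11 from 7097790 to 7102549, and had 21 counts without and 0 with doxycycline. Its RPKM was 0.226 without doxycycline, and the 0 counts allow up to 0.0525 RPKM. Its CPM without doxycycline was 4.71 times the floor of 3 counts in the library with doxycycline. Allowing also for the error of the 21 counts, the exact 95% interval of the fold began at 3.50, or at 1.51 with counts halved. Of the chemosensory receptor genes, 7 stood at or above it without doxycycline. Only 90 of these 1398 genes had counts with doxycycline, against 742 without. The part of these scarcer low counts in the difference of Igfbp1 was not tested.

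Igfbp7, which binds IGF weakly and also binds insulin and matrix, had an RPKM of 0.772 without and 0.483 with doxycycline, from 53 and 25 counts. By CPM it was 1.43-fold lower with an interval of 0.871 to 2.40, so a difference was not detectable at this depth. The gene lies on chromosome 5 from 77778265 to 77837070 and overlaps Polr2b, an RNA polymerase subunit gene, by 88 bases. Polr2b stood at 32.9 RPKM without and 26.8 RPKM with doxycycline, and reads of the shared bases cannot be told apart, since the sources used here do not give the strand of the counting. The other 8 members overlap 0 genes of the tables.

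**Figure D2:**
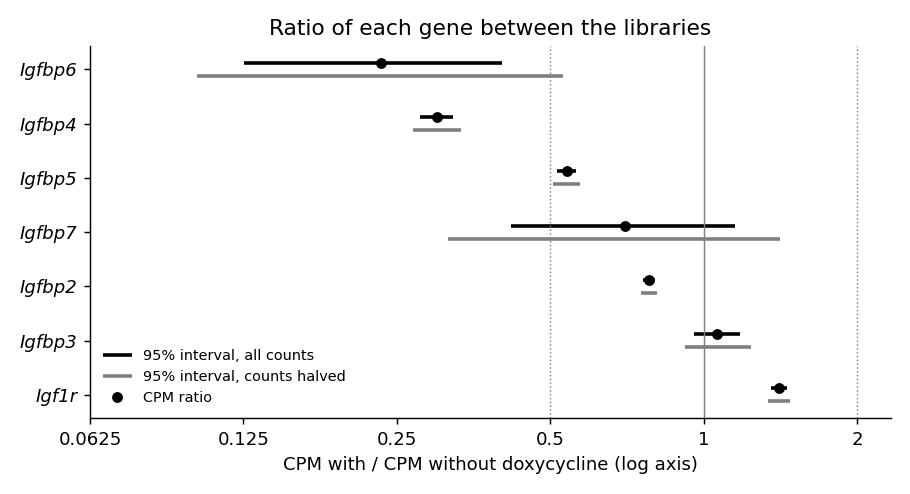
Ratio of CPM with over without doxycycline for 7 of the 9 genes, on a log axis, with exact 95% intervals from the counts as black lines and from halved counts as grey lines. Igf1 is left out because its gene models differ between the tables, and Igfbp1 because it had 0 counts with doxycycline. Igf1r is the only gene whose interval lies wholly above 1, and the points of Igfbp4 and Igfbp6 lie past the 2-fold line on the lower side.

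The members were ordered differently in the libraries. Without doxycycline the order from the highest RPKM was Igfbp2, Igfbp4, Igfbp5, Igf1r, Igfbp3, Igfbp6, Igfbp7, Igfbp1 and Igf1. Igfbp4 was 1.43 times Igfbp5 (1.37 to 1.48). With doxycycline Igfbp5 and Igf1r came next after Igfbp2 and could not be told apart, at a ratio of 1.00 (0.961 to 1.05), and Igfbp4 followed them. Igf1r was then 1.26 times Igfbp4 (1.17 to 1.35). Without doxycycline all neighbours in this order differed beyond counting error, except that with counts halved Igfbp6 and Igfbp7, and Igfbp1 and Igf1, did not. With doxycycline Igfbp7 and Igfbp6 were not distinguishable either, at 1.92 (0.972 to 3.91), and Igf1 and Igfbp1 had only 2 and 0 counts.

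The folds of the members differed from each other beyond counting error in most pairs. Over the 7 members with one gene model and at least 1 count in each library, 17 of 21 pairs had a ratio of folds whose interval excluded 1, and 15 with counts halved. Igfbp4 was lower than Igfbp5 by a further 1.80-fold (1.65 to 1.97), than Igfbp2 by 2.61-fold (2.41 to 2.83) and than Igf1r by 4.70-fold (4.32 to 5.12). Igfbp2 was lower than Igfbp3 by a further 1.36-fold (1.22 to 1.52), and Igfbp3 than Igf1r by 1.32-fold (1.18 to 1.48). These ratios are the same under any scaling of the libraries, since both genes of a pair share it.

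The summed level of the binding protein genes was 262 RPKM without and 164 RPKM with doxycycline, a log2 ratio of -0.67. Igfbp2 made up 76.1% of that sum without and 84.4% with doxycycline. Without Igfbp2 the sum was 62.5 and 25.5 RPKM, a log2 ratio of -1.29. The share of Igfbp4 was 12.2% without and 5.20% with doxycycline, that of Igfbp5 8.57% and 6.57%, and that of Igfbp3 2.21% and 3.34%. Igfbp6 and Igfbp7 each stayed below 1% in both libraries.

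**Figure D3:**
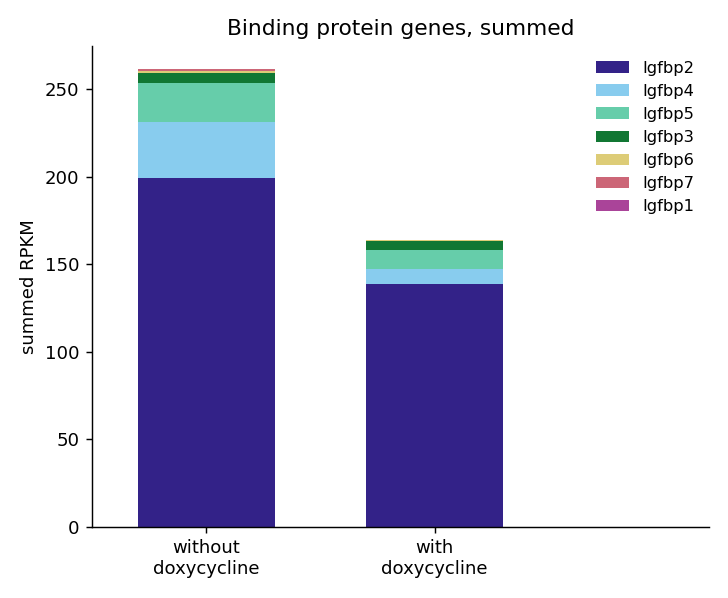
Summed RPKM of Igfbp1 to Igfbp7 without and with doxycycline, 1 library each, as bars from 0 divided by gene in colour. Igfbp1 is too low to be seen. The sum is 262 RPKM without and 164 RPKM with doxycycline, and Igfbp2 makes up most of both bars.

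The ligand that accompanied these binding proteins was Igf2, not Igf1. Igf2 made up 99.95% of the summed IGF1 and IGF2 RPKM without doxycycline, and its RPKM was 236 without and 136 with doxycycline. By CPM it was 1.55-fold lower (1.53 to 1.57), which exceeded the fold of Igfbp2 by 1.21-fold (1.17 to 1.25). The summed binding protein RPKM was 1.11 times that of the ligands without and 1.21 times with doxycycline.

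The other receptors went differently from Igf1r. Igf2r, the receptor that clears IGF2 by carrying it to lysosomes, had an RPKM of 49.4 without and 23.9 with doxycycline and was 1.84-fold lower by CPM (1.80 to 1.89). Igf2r thus stood at 5.77 times Igf1r without and 2.23 times with doxycycline, and the folds of these genes differed by 2.59-fold (2.48 to 2.70). Insr, the insulin receptor, had an RPKM of 4.33 without and 4.05 with doxycycline, while its CPM was 66.9 and 70.3, 1.05-fold higher with doxycycline with an interval of 0.987 to 1.12. The direction of Insr thus turned with the scaling. Of these other insulin and IGF ligands and receptors, 6 genes with 3 measured, 1 was at least 2-fold lower and 0 higher. This was Igf2r, with a log2 ratio of -1.03, which like Igfbp5 fell short of 2-fold by CPM and after centring on the median (-0.85). Ins1 had 0 counts in both libraries, and Ins2 and the insulin receptor-related gene Insrr had at most 5 counts in either library.

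Among the proteases and partners that act on the binding proteins, 13 genes with 6 measured, the median log2 ratio was -0.35. Against 2.64% and 0.262% of all measured genes, 1 was at least 2-fold lower and 0 higher. That gene was Mmp9, a matrix metalloproteinase, at 2.66 RPKM without and 0.427 RPKM with doxycycline, and its CPM was 5.56-fold lower (4.26 to 7.35). Like Igfbp6, it passed the filter only through the library without doxycycline. Pappa, whose protein cleaves IGFBP4, stood at 1.61 RPKM without and 0.997 RPKM with doxycycline, and its CPM was 1.44-fold lower (1.30 to 1.61). Stc2, whose protein inhibits PAPP-A, stood at 0.965 RPKM without and 1.64 RPKM with doxycycline, a log2 ratio of 0.55. Adamts1 had a log2 ratio of -0.45, Htra1 of -0.25 and Adam9 of 0.20. Adam12 was below the filter, at 0.391 RPKM without and 0.0169 RPKM with doxycycline. From 184 and 6 counts its CPM was 20.6-fold lower (9.30 to 57.0). Igfals and Adam28, also below the filter, had intervals that held 1, and the others had at most 12 counts in a library.

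Relatives that carry an IGFBP domain, 12 genes with 6 measured, had a median log2 ratio of -0.12. Against 2.64% and 0.262% of all measured genes, 1 of these was at least 2-fold lower and 0 higher. That gene was Kazald1, a secreted protein of bone and tooth formation, at 2.31 RPKM without and 0.502 RPKM with doxycycline, and its CPM was 4.10-fold lower (2.81 to 6.16). Kazald1 also passed the filter only through the library without doxycycline. The matricellular genes Ctgf and Cyr61 had log2 ratios of -0.32 and -0.22, Igfbpl1 of -0.01, Wisp1 of 0.07 and Crim1 of 0.34.

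Of 41 signalling genes downstream of the receptor, 38 were measured, and 0 were at least 2-fold lower or higher, where 2.64% and 0.262% of all measured genes were. In so few genes 0 is near these shares. The median log2 ratio of the 38 genes was -0.21, against -0.18 for all measured genes, over a range of -0.92 to 0.31. The lowest was Grb14, an adaptor that inhibits the insulin receptor, at 2.10 RPKM without and 0.871 RPKM with doxycycline. Its log2 ratio of -0.92 was short of 2-fold through the pseudocount, while the plain ratio was 2.41-fold lower by RPKM and 2.15-fold lower by CPM (1.66 to 2.80). Pik3cd, a catalytic subunit of PI3K, had a log2 ratio of -0.71. The kinase gene Akt1 stood at 31.1 RPKM without and 18.9 RPKM with doxycycline and Akt2 at 20.6 and 12.8 RPKM, log2 ratios of -0.70 and -0.67.

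The genes for the Igf2 mRNA-binding proteins, 3 of 3 measured, had log2 ratios of -0.35 (Igf2bp1), -0.26 (Igf2bp2) and -0.21 (Igf2bp3). In the growth hormone axis, 6 genes with 4 measured, 0 were at least 2-fold lower or higher and the median was -0.29. In so few genes 0 is near the shares over all measured genes, 2.64% and 0.262%. Stat5a, Stat5b and Jak2 had log2 ratios of -0.34, -0.39 and -0.24. Ghr, the growth hormone receptor, had 0.60, from gene models that differ between the tables, and growth hormone itself (Gh) had 0 counts in both libraries.

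**Figure D4:**
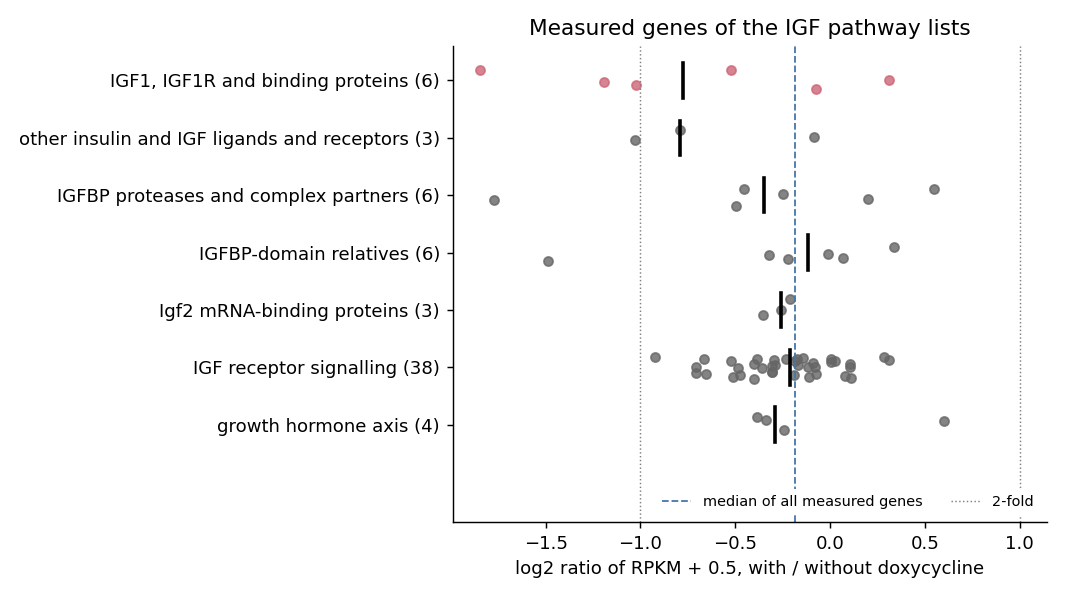
Log2 ratio of RPKM + 0.5, with over without doxycycline, of each measured gene of the IGF family and of 6 other pathway lists, with the list median as a bar, the median of all measured genes (-0.18) as a dashed line and 2-fold differences as dotted lines. The 38 signalling genes lie between -0.92 and 0.31, and 3 of the 6 measured IGF family members lie at or beyond the 2-fold line.

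HoxBlinc is transcribed from the HoxB cluster, which lies on the same chromosome as Igfbp4, and Igfbp4 starts 2.67 Mb beyond the cluster's end. Of the 73 genes between them 50 were measured, with a median log2 ratio of -0.19. Among these, 0 were at least 2-fold lower and 1 was higher, where 2.64% and 0.262% of all measured genes were. In so few genes 0 lower is near that share. The higher gene was Snora21, a small nucleolar RNA at 4.24 RPKM without and 26.7 RPKM with doxycycline, which was chosen after its values were seen. Top2a, the nearest measured gene on the HoxB side of Igfbp4, had a log2 ratio of -0.46. Tns4, 13036 bases beyond Igfbp4, had a log2 ratio of -0.68. Igfbp1 and Igfbp3 lie on the same chromosome 89.0 and 88.9 Mb from the cluster. Around all 9 members, the 3 nearest genes on each side, members left out, were 42 genes, 24 of them measured. Their median was -0.32, and 0 were at least 2-fold lower and 0 higher, which is near the shares over all measured genes.

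**Figure D5:**
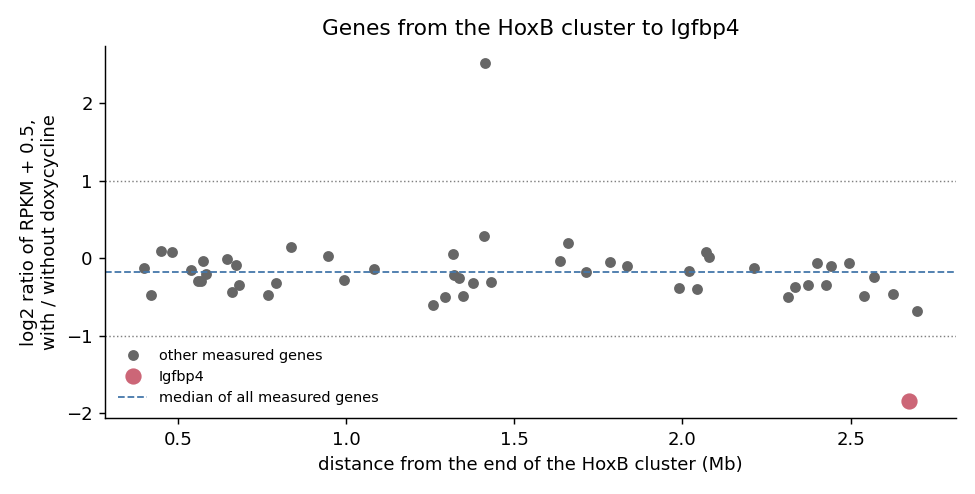
Log2 ratio of RPKM + 0.5, with over without doxycycline, of each measured gene on chromosome 11 against its distance from the end of the HoxB cluster in megabases, up to Igfbp4 and Tns4 just beyond it, with the median of all measured genes (-0.18) as a dashed line. Igfbp4 stands at -1.85 at 2.67 Mb, and 0 of the 50 measured genes before it reach the 2-fold line on the lower side. Of all measured genes 2.64% do, so 0 of 50 is near that share.

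Markers of cell types that the embryoid bodies could hold are given because binding protein genes are expressed in several of them. Markers at 0 are named below, and of all 20207 genes 2293 were at 0 without and 4443 with doxycycline. Of the fibroblast and mesenchyme markers, 9 of 14 measured, 6 were at least 2-fold lower and the summed level was 106 RPKM without and 55.7 RPKM with doxycycline, with none at 0 in either library. The 3 most abundant of them were short of 2-fold, with log2 ratios of -0.77 (Col1a2), -0.70 (Col1a1) and -0.59 (Twist1). Of the visceral endoderm and liver markers, 9 of 14 measured, 7 were at least 2-fold lower and the sum was 44.0 and 8.13 RPKM, with Alb at 0 with doxycycline. Spink3, Ttr and Rbp4, the most abundant of these, had log2 ratios of -3.04, -2.62 and -1.86.

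Of the endothelial markers, 8 of 14 measured, 5 were at least 2-fold lower and the sum was 37.7 and 16.6 RPKM, with Emcn and Erg at 0 with doxycycline. Kdr had a log2 ratio of -2.60 and Pecam1 of -1.20, while Egfl7, the most abundant, had -0.63 from gene models that differ between the tables. Of the cardiac markers, 12 of 14 measured, 7 were at least 2-fold lower and the sum was 122 and 86.6 RPKM, with Myl2 at 0 without and Nkx2-5 at 0 with doxycycline. The most abundant cardiac markers did not share this. Tnnc1 was higher, at 26.6 RPKM without and 41.6 RPKM with doxycycline, Myh7 was nearly level at 21.7 and 21.6 RPKM, and Myl4 had a log2 ratio of -0.33.

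Of the smooth muscle markers, 5 of 7 measured, 2 were at least 2-fold lower and the sum was 260.0 and 191 RPKM, with log2 ratios of -0.15 for Tagln, -1.24 for Acta2 and -0.03 for Tpm2. Of the neural markers, 6 of 9 measured, 2 were at least 2-fold lower and the sum was 42.8 and 35.9 RPKM, with Neurog1 at 0 without and Neurog2 at 0 with doxycycline. Otx2, Nes and Sox1 had log2 ratios of -0.31, 0.02 and 0.23. Of the parietal endoderm markers, 9 of 10 measured, 0 were at least 2-fold lower, with sums of 526 and 429 RPKM and log2 ratios of -0.07 for Sparc, -0.50 for Krt19 and -0.17 for Lamb1-1. Of the pluripotency markers, 9 of 9 measured, 0 were at least 2-fold lower, with sums of 374 and 307 RPKM and log2 ratios of -0.13 for Dppa5a, -0.39 for Sox2 and -0.50 for Pou5f1.

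Over all measured genes 2.64% were at least 2-fold lower. None of the 8 marker lists held a gene past 2-fold on the higher side, where only 0.262% of all measured genes stood. With so few markers, 0 is near that share. Many of the lower genes passed the filter only through the library without doxycycline: 2 of 6 fibroblast, 5 of 7 visceral endoderm, 4 of 5 endothelial, 6 of 7 cardiac and 2 of 2 neural markers, and 159 of the 292 genes in all. The part of these cell types in the levels of the binding protein genes was not tested.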

How the data were processed

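Total RNA of day 6 embryoid bodies gave paired-end libraries, per the labels' protocols. The submitters' processing notes name Bowtie2 and mm9. Counting program, annotation and strand setting: not given in the sources used here. The authors deposited for every gene an RPKM, a count of reads and an RMS-normalized RPKM, per the file headers. The deposited counts are estimated counts, since 1062 values without and 825 with doxycycline were not whole, and were rounded for the intervals. The RMS-normalized value is a ratio, which the authors made by dividing RPKM by its root mean square over the genes.

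The library tables were joined by gene, because the deposited merged table set values of another gene side by side at 140 genes. The 9 members were equal there. No columns of other samples were used. The RPKM denominators of the libraries were in a ratio of 1.33 and the count totals in a ratio of 1.49, so the scalings differ by a factor of 1.12. A floor of 3 counts stood at 0.0810 CPM without and 0.120 CPM with doxycycline. A count of exactly 2 was more frequent (846 genes without, 603 with doxycycline) than a count of exactly 1 (583 and 296 genes). Since this points to single counting of mates, each interval was also computed with halved counts.

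Ratios of folds were conditional exact odds ratios. Motifs were searched on both strands of 250 base RefSeq windows, whose 50 bases after the start were left out. The members and lists were chosen with earlier results of these data known. All members were named. Of each other pathway list, all measured genes were named where there were 6 or fewer, and otherwise the 4 with the largest absolute log2 ratios. Adam12, Igfals, Adam28, Irs3, Irs4 and Foxo6, below the filter, were added after their values were seen. Of each marker list, the 3 with the highest RPKM were named, and genes at 0. The steps were tested on simulated data of 10954 genes with 200 changed 4-fold. The 2-fold rule found 98.5% of these with the right sign and 0 of the unchanged genes, and the true ratio lay inside 95.3% of intervals. The simulated counts held counting error only, at a scaling shared by all genes. These rates therefore check the steps and are not error rates of the real comparison. Spread between replicates, single counting of mates and the difference between the scalings were not simulated. Python 3.11.15, numpy 2.4.6, pandas 2.3.3, SciPy 1.17.1 and matplotlib 3.10.9 were used. Pseudocounts, filters, scalings and the merged table were varied as alternatives.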

Additional observations from a re-analysis of the deposited data

How the results depend on the processing

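The count of 3 members at least 2-fold lower was kept with a pseudocount of 0.1, with no filter, with RMS-normalized RPKM and in the merged table. It was 1 (Igfbp4) with a pseudocount of 1, where Igfbp5 stood at -0.99 and Igfbp6 at -0.82, and 2 with an RPKM filter of 5 (Igfbp4 and Igfbp5), after centring on the median and by CPM (Igfbp4 and Igfbp6 each time). Under each of these settings 0 members were at least 2-fold higher. Over all measured genes, 292 lower and 29 higher became 193 and 50 after centring, 302 and 54 by CPM, 475 and 20 by RMS-normalized RPKM and 332 and 63 in the merged table. The log2 ratio of the summed binding protein level, -0.67, was -0.49 after centring, -0.91 with RMS-normalized RPKM, -0.62 by CPM and -1.29 without Igfbp2. Without Igfbp2 and Igfbp4, chosen after seeing the data, it was -0.84. Of the members' log2 ratios, 15 of 18 moved by more than the counting interval under the 3 other scalings, and 0 of 12 under the other pseudocounts. That of Igfbp6 still ran from -1.90 with a pseudocount of 0.1 to -0.82 with 1, since its counting interval is wide. The filters and the merged table could not change a member's ratio. The sign of Igfbp3 turned positive after centring (0.11) and by CPM (0.09). The cause of these differences was not tested beyond the scaling itself. No paired analysis was possible because each group held 1 library, and no replicate could be left out. Depth limits Igf1, Igfbp1, Igfbp6 and Igfbp7, which rest on at most 96 counts in a library.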
